A study of Mus musculus with 96 samples.

Results

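The hairpins of the miR-124 and miR-9 families were examined in small RNA libraries of the mouse striatum. They are 6 of the 1187 hairpin rows of the count table, taken by identifier: MI0000716, MI0000717 and MI0000150 are mir-124-1, mir-124-2 and mir-124-3, and MI0000720, MI0000157 and MI0000721 are mir-9-1, mir-9-2 and mir-9-3. The 96 libraries, each from 1 mouse on the C57BL/6 background, belong to an allelic series for Huntington's disease. Heterozygous knock-in mice carry 1 wild-type *Htt* allele and 1 allele with a human *HTT* exon whose CAG repeat is named by its length (Q140, Q92, Q50 or Q20). They were sequenced with wild-type littermates of the Q20 line and of the Q50 line, and Q20 and wild-type mice together served as controls. Each of the 6 genotypes had 4 females and 4 males at 10 months and as many at 6 months, so that each line is set against 24 controls at each age. The labels number these mice as separate samples.

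miR-124 is among the most abundant microRNAs of neurons and is known for keeping non-neuronal transcripts low in these cells. miR-9 is made in neural progenitors and in neurons and is known for its part in neurogenesis, and both arms of its hairpin give functional microRNAs. Each family is encoded at 3 loci whose hairpins give the same mature products. A mature microRNA pairs with its targets mainly through its seed, the bases 2 to 8 from its 5′ end.

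The mature miR-9 sequences of RefSeq (GRCm38.p6) are shown because reads of them cannot be told apart by locus. The seed is in capitals.
mmu-miR-9-5p: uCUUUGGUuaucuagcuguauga
mmu-miR-9-3p: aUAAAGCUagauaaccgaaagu
Both are present letter for letter in all 3 miR-9 hairpins. Among 1679 mature names in the same table, no other mature shares either seed. The hairpins follow, with the mature arms in capitals, to show where a read could tell the copies apart.
mir-9-1: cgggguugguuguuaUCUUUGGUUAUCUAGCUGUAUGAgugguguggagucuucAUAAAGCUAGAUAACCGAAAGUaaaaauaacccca
mir-9-2: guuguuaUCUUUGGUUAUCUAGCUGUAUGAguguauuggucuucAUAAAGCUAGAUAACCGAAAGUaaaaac
mir-9-3: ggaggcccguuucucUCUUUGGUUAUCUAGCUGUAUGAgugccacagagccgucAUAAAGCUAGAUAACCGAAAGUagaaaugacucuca
Downstream of miR-9-5p the 3 copies stay identical for 3 bases. Around miR-9-3p, mir-9-1 and mir-9-2 share 6 bases upstream and 5 downstream, whereas mir-9-3 shares 2 and 1 with either of them. Upstream of miR-9-5p, mir-9-3 shares 0 bases with the other copies, and mir-9-1 holds all 7 bases that mir-9-2 has there. Reads were 36 cycles long before clipping, so a read that ends within these stretches fits more than 1 copy.

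The loci lie on the plus strand of 5 chromosomes of GRCm38.p6, the mm10 assembly to which the authors aligned. mir-124-1 is at chr14:64590657-64590741, in an exon of its host lincRNA Mir124a-1hg. mir-124-2 is at chr3:17795662-17795770, in an exon of Mir124-2hg, and mir-124-3 is at chr2:180894040-180894107, in an exon of the lincRNA Gm27032. mir-9-1 is at chr3:88215598-88215686, in an intron of the lincRNA Gm3764. mir-9-2 is at chr13:83738814-83738885, in an exon of the lincRNA C130071C03Rik, and mir-9-3 is at chr7:79505264-79505353, in an intron of Mir9-3hg. The hairpin lengths implied by the deposited counts and FPKM values were 85, 109 and 68 bases for the mir-124 rows and 89, 72 and 90 bases for the mir-9 rows, the same as the RefSeq lengths of these 6 genes.

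The values of single rows are divided counts. Each of the 6 rows was not a whole number in 94 to 96 of 96 libraries (tolerance 0.001), while the sum of each family was whole in 96 of 96 libraries (tolerance 0.02). Most of each family's reads were given to 1 row. mir-124-3 held a median of 98.4% of the miR-124 sum (range 97.0% to 98.9%), mir-124-1 held 1.54% and mir-124-2 held 0.0761%. mir-9-2 held a median of 99.3% of the miR-9 sum (range 97.7% to 99.5%), mir-9-3 held 0.692% and mir-9-1 held 0.0128%. These shares describe how reads were assigned, and the share transcribed from each locus was not tested. The family sums do not depend on that assignment and are given first throughout.

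Both families were abundant in every library. The miR-9 sum had a median of 27417 CPM (counts scaled to a common library size with TMM factors) over 96 libraries, with a range of 19999 to 39958, and made up 2.76% of the median library. mir-9-2 ranked 7th by its mean share among the 1187 rows. The miR-124 sum had a median of 5322 CPM, with a range of 1826 to 8075, and made up 0.529% of the median library. mir-124-3 ranked 41st. The remaining copies had medians of 189 CPM for mir-9-3, 81.1 CPM for mir-124-1, 4.02 CPM for mir-124-2 and 3.61 CPM for mir-9-1, and the rounded count of mir-9-1 was 0 in 20 of 96 libraries. All 6 rows passed the filter on low counts, which kept 474 hairpins.

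Total counts per library ran from 3948560 to 12530911. The description of each library ends in an L number whose meaning is not stated, and L numbers 3, 4 and 5 occur at both ages and L number 6 at 6 months alone. At 6 months, 10 libraries carry L4, and they stood apart in 3 copies. mir-9-1 lay at 29.1 to 121 CPM in these 10 libraries, against 0.0053 to 14.7 CPM in the other 86 libraries of both ages. mir-9-3 lay at 435 to 601 CPM in the 10 L4 libraries and at 140 to 274 CPM in the other 86. Neither copy's ranges overlapped. mir-124-1 was at 95.3 to 160 CPM in these L4 libraries, against 25.3 to 109 CPM in the other 86, with some overlap. The ranges of the sums overlapped: the miR-9 sum had a median of 28707 CPM in the 10 libraries and 27180 CPM in the others, and the miR-124 sum had medians of 4998 and 5337 CPM. The 10 libraries came from all 6 genotypes (1 Q140, 3 Q92, 2 Q50, 1 Q20 and 3 wild-type mice), 8 of them from males. The 27 libraries with L4 at 10 months did not share the pattern, with mir-9-1 at 0.011 to 14.7 CPM and mir-9-3 at 148 to 238 CPM.

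**Figure D1:**
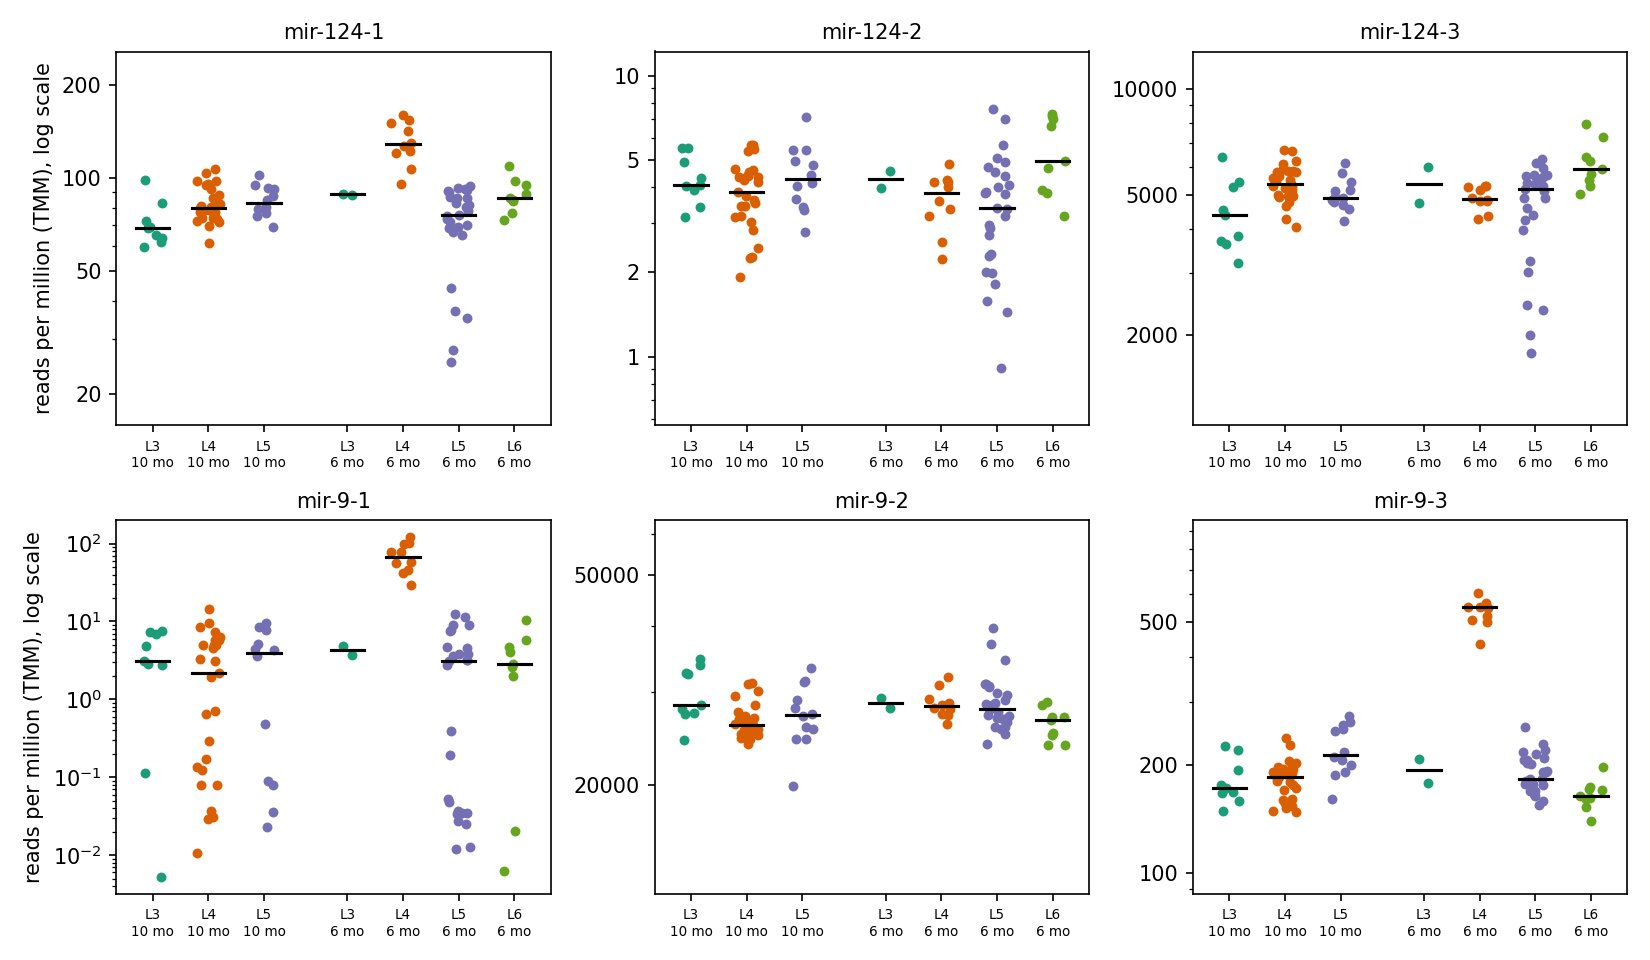
CPM (TMM-scaled, log scale) of each copy in 96 libraries, grouped by L number and age. Points are libraries and bars are medians. mir-9-1 and mir-9-3 lie above all other libraries in the 10 libraries with L4 at 6 months, and mir-9-2 does not.

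The differences between L numbers were tested over 48 libraries at each age, with sex and genotype in the model (edgeR quasi-likelihood F test, Benjamini-Hochberg adjustment over 474 hairpins, called below 0.05). mir-9-1 is described without a test, since its L pattern was known when the hairpins were chosen. At 6 months 17.5% of all hairpins were called, and of the other 5 members 3 were called: mir-9-3 (spread between L numbers 1.67 on the log2 scale, adjusted p = 2.4e-23), mir-124-1 (0.96, adjusted p = 0.00013) and mir-124-3 (0.54, adjusted p = 0.046). Without the 10 L4 libraries the spread was 0.24 for mir-9-3 (adjusted p = 0.12) and 0.42 for mir-124-1 (adjusted p = 0.14). That of mir-124-3 was still 0.54, with an adjusted p of 0.055. The call of mir-124-3 was near the threshold: it was also lost with total counts (adjusted p = 0.11), without a filter (0.11), with limma (0.057), without libraries of a connectivity Z under -5 (0.056) and for 24 of 48 single libraries left out. The miR-124 sum lay beside the threshold (0.52, adjusted p = 0.0501), and the miR-9 sum was not called (0.14, adjusted p = 0.24). At 10 months 24.1% of all hairpins were called, and mir-9-3 was the only 1 of the 5 members (0.36, adjusted p = 0.0020), with a median of 173 CPM in L3 libraries, 185 CPM in L4 and 214 CPM in L5.

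The miR-124 sum had low libraries of its own. The 5 lowest values, 1826 to 3073 CPM, all came from 6-month libraries with L5, of which there were 27. They were Q140 male 1, Q92 female 1, male 3 among Q50 wild-type littermates, and males 3 and 4 among Q20 wild-type littermates. In 3 of these 5 the connectivity of the expression profile, the study's measure for outlying libraries, also fell under its limit of Z = -5 (values -9.98, -8.78 and -5.87), and Q140 male 1 had the highest miR-9 sum of all, 39958 CPM. The tissue label could not be checked against markers of other cell types, since the files give hairpins without names. In whole striatum, fewer cells of a type and less of a microRNA per cell cannot be told apart.

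The first question of the design is whether microRNA levels follow CAG length. Neither family sum passed that test. Values combined over both ages are the mean of both, while their p comes from Stouffer's method. The combined slope of the miR-124 sum was 0.012 ± 0.067 (SE) on the log2 scale per 100 CAG repeats (adjusted p = 0.97), and that of the miR-9 sum was -0.0096 ± 0.032 (adjusted p = 0.86). The 95% interval covered a change per 100 repeats of -7.98% to 10.5% for miR-124 and of -4.92% to 3.78% for miR-9. Of the 6 hairpins 0 were called, where 21.5% of all 474 were (102 hairpins). For the combined slope 1 member, mir-124-2, had an unadjusted p below 0.05 (slope 0.24 ± 0.098, adjusted p = 0.12), and DESeq2 and limma called 0 as well. At 6 months alone the slope of mir-124-2 was 0.45 ± 0.16 (adjusted p = 0.065), with 38 of 474 hairpins called. DESeq2 called it at that age (0.45, adjusted p = 0.046), with 49 of 474 called. At 10 months its slope was 0.029 ± 0.12 (adjusted p = 0.94). The combined slopes were 0.013 for mir-124-1, 0.0092 for mir-124-3, 0.19 for mir-9-1, -0.013 for mir-9-2 and 0.019 for mir-9-3. The median slope was 0.016 over the 6 and 0.0054 over all 474 hairpins. Within single L numbers the miR-124 slope was -0.40 in L3 (11 libraries), -0.016 in L4 (37), -0.065 in L5 (39) and -0.0079 in L6 (9), and the miR-9 slope was 0.12, 0.0027, -0.014 and -0.010 in the same order. L3, L4 and L5 hold libraries of both ages here, and whether an L number means the same at both ages is not stated.

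Group levels of the sums overlapped at every repeat length. At 10 months the miR-124 sum averaged 5180 ± 488 CPM in Q20 wild-type littermates, 5169 ± 799 in Q50 wild-type littermates, 5524 ± 791 in Q20, 5301 ± 783 in Q50, 4891 ± 1192 in Q92 and 5320 ± 613 in Q140 mice (SD, n = 8 each). At 6 months the means were 4537 ± 1396, 4897 ± 1334, 5561 ± 1169, 5576 ± 487, 5074 ± 1466 and 5030 ± 1396 CPM in the same order of genotypes. Neighbouring miR-124 means differed by less than the larger SD of the pair at both ages. The miR-9 sum averaged 27199 ± 1564, 29286 ± 2883, 25126 ± 3139, 27370 ± 3356, 28543 ± 3743 and 27421 ± 2268 CPM at 10 months, and 29194 ± 2890, 29801 ± 3409, 27618 ± 1803, 28443 ± 2670, 27767 ± 2239 and 28222 ± 5025 CPM at 6 months, in that order. At 10 months the step from the wild-type littermates of Q50 (29286 CPM) to the Q20 knock-in mice (25126 CPM) was larger than the SD of either group. The lowest miR-9 mean was that of Q20 at both ages, where the miR-124 sum was among the highest.

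**Figure D2:**
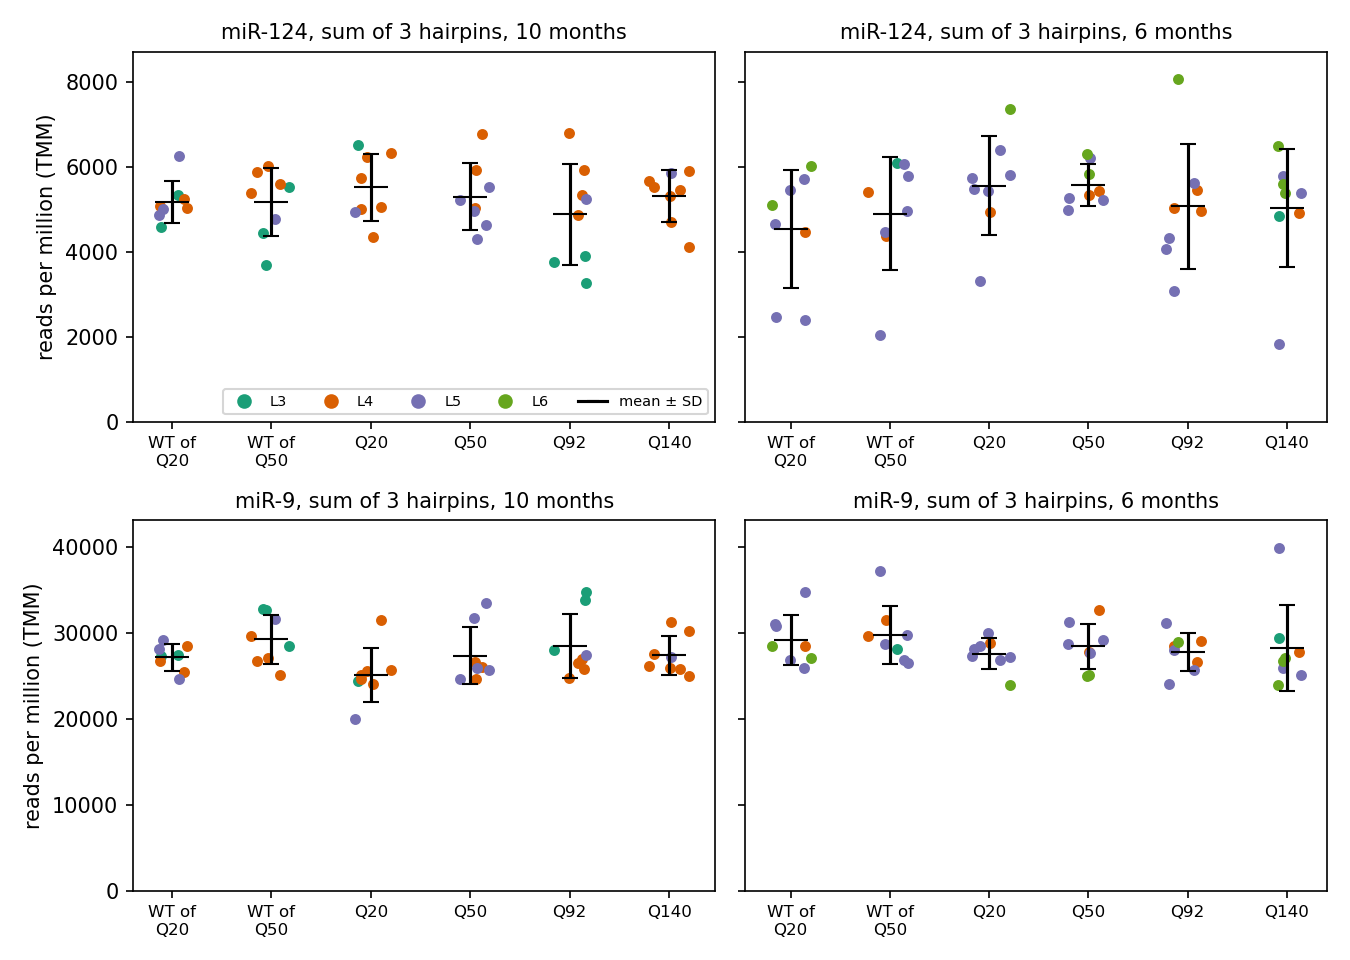
Sum of the 3 hairpins of each family in CPM (TMM-scaled) by genotype, at 10 months (left) and 6 months (right). Points are mice coloured by L number, with mean ± SD (n = 8). The groups overlap at every repeat length, and the lowest miR-124 values at 6 months are L5 libraries.

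Q140 mice, with the longest repeat among these 96 libraries, were set against the 24 controls of their age. At 6 months the miR-124 sum ranged from 1826 CPM, with a median of 5382, to 6504 CPM in the 8 Q140 mice, against 2036 CPM, with a median of 5415, to 7374 CPM in controls. The log2 difference was 0.029 ± 0.16 (adjusted p = 0.94), with a 95% interval of -18.2% to 27.3%. At 10 months the range was 4120 to 5907 CPM (median 5493) in Q140 mice and 3692 to 6518 CPM (median 5167) in controls, a difference of 0.019 ± 0.090 (adjusted p = 0.92; -10.3% to 14.4%). The miR-9 sum differed by -0.022 ± 0.062 at 6 months (adjusted p = 0.87; -9.53% to 7.19%) and by 0.018 ± 0.066 at 10 months (adjusted p = 0.88; -7.38% to 10.7%). Within L numbers that held at least 2 mice of each kind, the log2 difference of the miR-124 sum was -0.23 in L5 (3 Q140 and 16 control mice) and -0.069 in L6 (3 and 3) at 6 months and -0.060 in L4 (7 and 13) at 10 months. For the miR-9 sum these were 0.029, -0.033 and 0.044.

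The least abundant mir-124 copy was the only member called in Q140 mice. mir-124-2 had 3.98, 4.53, 7.03 and 6.63 CPM in Q140 females 1 to 4 and 7.61, 4.19, 4.69 and 7.19 CPM in Q140 males 1 to 4 at 6 months, against 1.44 to 5.68 CPM (median 3.35) in the 24 controls. All 8 Q140 mice lay above the control mean of 3.43 CPM and 4 lay above every control. So did 2 of 8 Q50 mice and 0 of 8 Q92 mice of that age. The log2 difference between Q140 mice and controls was 0.71 ± 0.20 (adjusted p = 0.019), where 7.81% of all hairpins were called and 3.59% were called higher. With total counts alone 12 hairpins were called higher and 31 lower, against 17 higher and 20 lower with TMM factors, and mir-124-2 stayed called (0.67, adjusted p = 0.020). The CPM values rest on 26.8 to 48.2 assigned counts per Q140 library. Without libraries of a connectivity Z under -5 the difference was 0.62 (adjusted p = 0.035), with 74 of 474 hairpins called. At 10 months mir-124-2 ranged from 2.43 to 4.60 CPM in Q140 mice and from 1.91 to 5.53 CPM in controls. Of 8 mice each, 0 Q140, 1 Q92 and 2 Q50 mice lay above every control. The difference between Q140 mice and controls was -0.029 ± 0.16 (adjusted p = 0.92).

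The call at 6 months depended on the controls and on the L number. With wild-type mice as the only controls the log2 difference of mir-124-2 was 0.83 (adjusted p = 0.011) and the call held, with 43 of 474 hairpins called. With Q20 mice as the only controls the difference was 0.52 (adjusted p = 0.33), with the L number in the model 0.59 (adjusted p = 0.068), and without L6 libraries 0.66 (adjusted p = 0.20), so the hairpin was not called in these 3 fits. They called 21, 31 and 13 of all 474 hairpins in that order, against 37 in the main fit. The call was also lost without Q140 male 4 (0.64, adjusted p = 0.072). Within single L numbers the log2 difference was -0.19 in L3 (1 Q140 and 1 control mouse), 0.41 in L4 (1 and 4), 1.01 in L5 (3 and 16) and 0.62 in L6 (3 and 3), and 3 of 8 Q140 libraries but 3 of 24 control libraries carried L6. The slope with CAG length did not differ between ages beyond the threshold (-0.44 ± 0.20 at 10 minus 6 months, adjusted p = 0.38, with 2.11% of hairpins called and 0 members). As a share of the miR-124 sum, mir-124-2 averaged 0.140% ± 0.115 in Q140 mice and 0.0713% ± 0.0225 in controls at 6 months (SD, n = 8 and 24), with a two-sided exact permutation p of 0.0030, or 0.037 when adjusted over the 12 shares tested. This share uses the same counts as the call and is no separate evidence. Q140 male 1, with its low miR-124 sum, had a share of 0.417%, and without it the Q140 mean was 0.10% (exact p = 0.012). None of the other 11 share tests passed, and their exact p lay between 0.62 and 0.93.

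**Figure D3:**
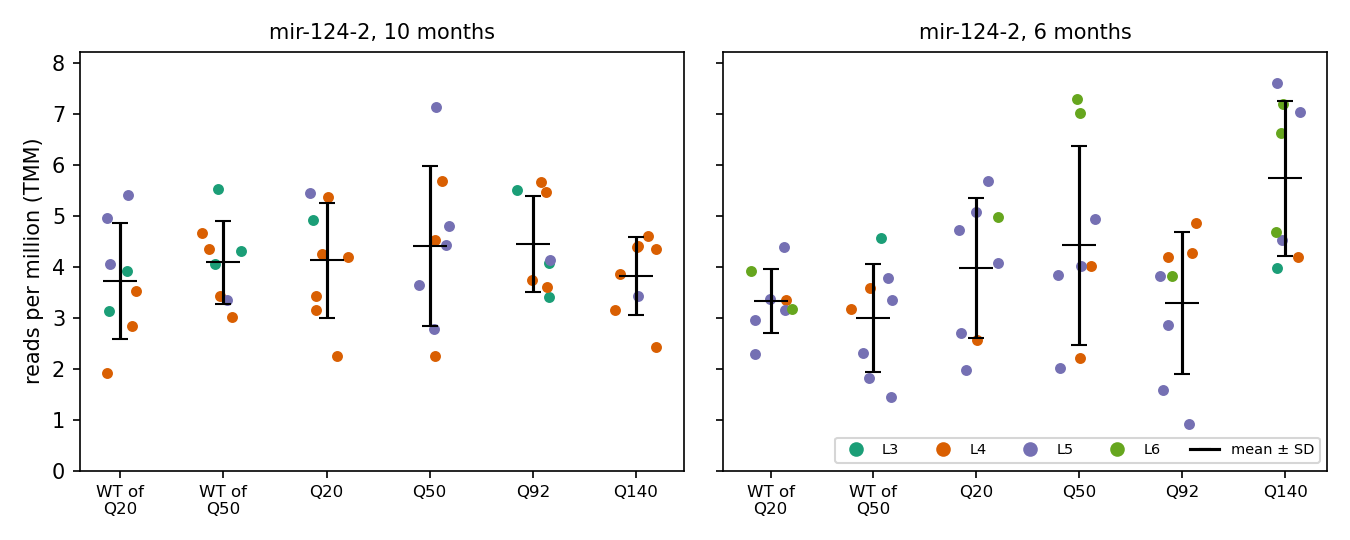
CPM (TMM-scaled) of mir-124-2 by genotype, at 10 months (left) and 6 months (right). Points are mice coloured by L number, with mean ± SD (n = 8). Of the 8 Q140 mice, 0 at 10 months and 4 at 6 months lie above every wild-type and Q20 mouse of their age. Of the 8 Q50 mice 2 do so at each age, and of the 8 Q92 mice 1 at 10 months and 0 at 6 months.

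The other 5 members were not called in Q140 mice at 6 months, nor any of the 6 at 10 months, where 16.9% of all hairpins were called, no member had an unadjusted p below 0.05 and DESeq2 and limma called 0. mir-9-2, which carries nearly all miR-9 counts, differed by -0.053 ± 0.059 at 6 months and by 0.030 ± 0.063 at 10 months. mir-124-3 differed by 0.0042 ± 0.17 and 0.028 ± 0.091. The widest error was that of mir-9-1, 0.026 ± 0.995 at 6 months, where 1 of the Q140 libraries carries L4 and had 121 CPM.

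The shorter expansions gave no call for either family. In Q92 mice, over both ages, the miR-124 sum differed from controls by -0.044 ± 0.093 (adjusted p = 0.84) and the miR-9 sum by -0.0031 ± 0.045 (adjusted p = 0.99). In Q50 mice the differences were 0.082 ± 0.092 (adjusted p = 0.92) and -0.0097 ± 0.045 (adjusted p = 0.995). The 95% intervals reached from -14.6% to 10.1% for miR-124 in Q92 mice and from -6.67% to 20.0% in Q50 mice. For both lines 0 of the 6 hairpins and 0% of all 474 were called, no member had an unadjusted p below 0.05, and DESeq2 and limma called 0 members. The 95% interval of mir-124-2 in Q50 mice, from the mean of both ages, was 0.33% to 43.7%, with an unadjusted p of 0.057 by Stouffer's method. Q20 mice, the shortest knock-in allele, differed from their own wild-type littermates by 0.20 ± 0.11 in the miR-124 sum (adjusted p = 0.58) and by -0.097 ± 0.053 in the miR-9 sum (adjusted p = 0.52). Here 1.48% of hairpins were called and 0 members, none with an unadjusted p below 0.05 and 0 by DESeq2 or limma.

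**Figure D4:**
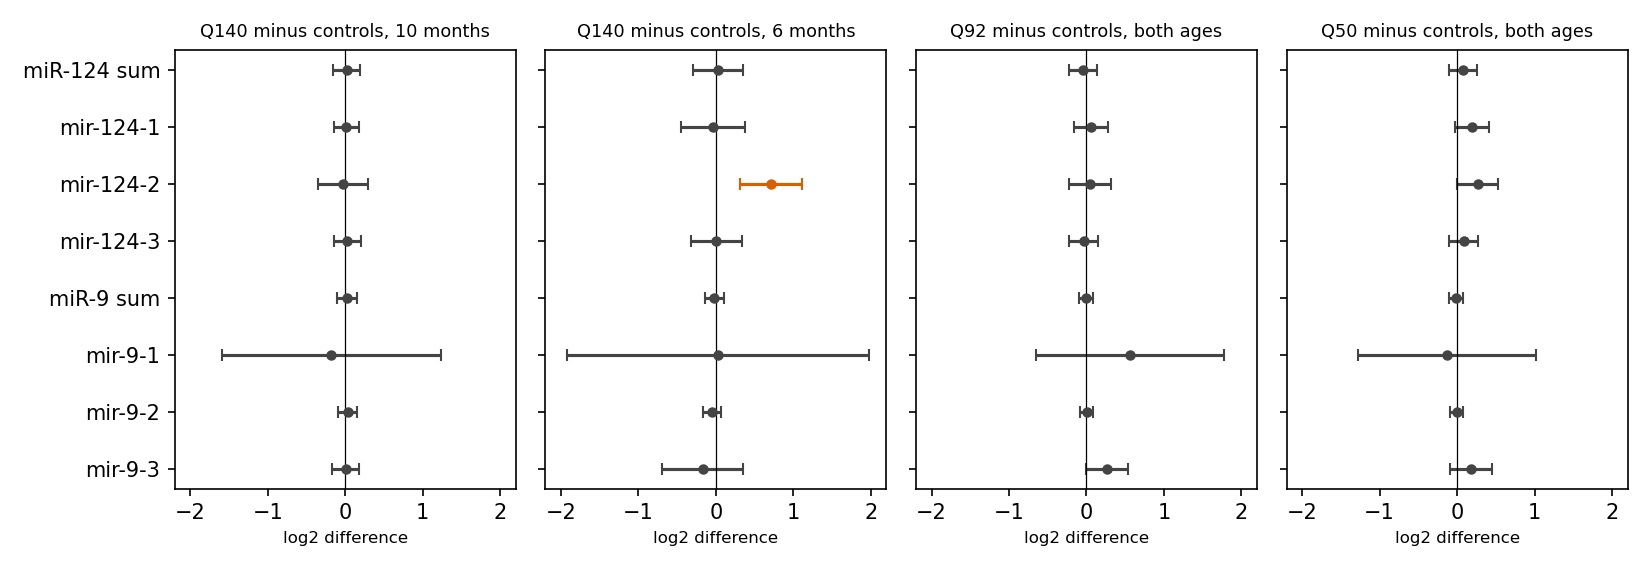
Log2 difference (x axis) of each family sum and each copy between knock-in lines and controls. Bars are 95% intervals. Values over both ages are means of both, and the interval of mir-124-2 in Q50 mice lies above 0 (unadjusted p = 0.057 by Stouffer's method). Each panel names the line and the age, and orange marks the 1 value with an adjusted p below 0.05, mir-124-2 in Q140 mice at 6 months (0.71).

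Age was compared in the 48 control mice. The miR-124 sum averaged 5291 ± 697 CPM at 10 months and 4998 ± 1319 CPM at 6 months (SD, n = 24 each), a log2 difference of 0.089 ± 0.091 (adjusted p = 0.47). The miR-9 sum averaged 27203 ± 3047 CPM at 10 months and 28871 ± 2820 CPM at 6 months, a difference of -0.085 ± 0.046 (adjusted p = 0.13). Neither sum was called. Of the 6 hairpins the 3 mir-9 copies were called, all lower at 10 months, where 42.4% of all hairpins were called and 23.4% were called lower. mir-9-1 differed by -1.62 ± 0.63 (adjusted p = 0.035), mir-9-3 by -0.37 ± 0.13 (adjusted p = 0.019) and mir-9-2 by -0.11 ± 0.047 (adjusted p = 0.048). Scaling factors were estimated anew for the table with the sums, so the tests of a sum and of its copies are not on 1 scale. DESeq2 gave -0.097 for mir-9-2 (adjusted p = 0.063) and -0.099 for the miR-9 sum (adjusted p = 0.055). The contrast between a called mir-9-2 and an uncalled sum is therefore no separate result. The L pattern of mir-9-1 at 6 months was known when the hairpins were chosen, so its age call is no independent evidence.

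The age differences of mir-9-1 and mir-9-3 moved with the L4 libraries at 6 months, and that of mir-9-2 did not. Without those 4 control libraries the difference was 0.0026 for mir-9-1 (adjusted p = 0.998) and -0.026 for mir-9-3 (adjusted p = 0.75). That of mir-9-2 was -0.12, about the same size, with an adjusted p of 0.058, and 0 of the 6 hairpins were called. Leaving out 1 library ended the call of mir-9-1 for any of Q20 male 3 and males 2 and 4 among Q50 wild-type littermates, all L4 at 6 months (adjusted p at most 0.065), and the call of mir-9-2 for 27 of 48 libraries. Of the 3 mir-9 copies DESeq2 called mir-9-3 (adjusted p = 0.017) and limma called 0 (adjusted p = 0.81 for mir-9-2, 0.80 for mir-9-1 and 0.23 for mir-9-3). The 1 member called by limma was mir-124-2 (MI0000717), higher at 10 months (0.30, adjusted p = 0.045). Within L4, control mice averaged 2.97 CPM of mir-9-1 at 10 months (n = 13) and 71.0 CPM at 6 months (n = 4). Within L5 the means were 5.20 CPM at 10 months (n = 5) and 3.58 CPM at 6 months (n = 16). Whether an L number stands for the same set of libraries at both ages is not stated. Age and a difference between the sets of libraries of each age therefore cannot be told apart. With libraries scaled by total counts alone the difference of mir-9-2 was -0.011 (adjusted p = 0.87). That scaling put the median of all 474 hairpins at 0.086, against -0.011 with TMM factors, and 143 hairpins were called higher and 63 lower at 10 months, against 90 higher and 111 lower with TMM factors. Relative to the median hairpin, mir-9-2 was at -0.097 with total counts and -0.10 with TMM factors.

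In the expanded lines 0 members were called between ages, where 15.2% of hairpins were called in Q140, 17.3% in Q92 and 14.3% in Q50 mice. At an unadjusted p below 0.05 there were 1 member in Q140, 2 in Q92 (mir-9-1 and mir-9-3) and 0 in Q50 mice, and DESeq2 and limma called 0. mir-9-1 differed by -2.04 ± 1.12 in Q140, -3.04 ± 1.16 in Q92 and -2.06 ± 1.14 in Q50 mice, and without the 6-month L4 libraries by -0.27, -0.0047 and 0.75. The sums differed by 0.073 (miR-124) and -0.052 (miR-9) in Q140 mice between 10 and 6 months.

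Between sexes, the miR-124 sum of controls was 0.21 ± 0.091 on the log2 scale in females minus males (unadjusted p = 0.027, adjusted p = 0.36). At 10 months it averaged 5409 ± 563 CPM in 12 females and 5173 ± 817 CPM in 12 males, and at 6 months 5606 ± 1001 CPM in 12 females and 4391 ± 1352 CPM in 12 males. These males include low L5 libraries named above. They are males 3 and 4 among Q20 wild-type littermates (2403 and 2462 CPM) and male 3 among Q50 wild-type littermates (2036 CPM). The miR-9 sum differed by -0.073 ± 0.046 (adjusted p = 0.58). Of the 6 hairpins 0 were called, with 0.211% of all called (1 hairpin), 3 members at an unadjusted p below 0.05 and 0 by DESeq2 or limma. Those 3 were mir-124-3 (0.22), mir-9-1 (-1.54) and mir-9-3 (-0.33), and the 4 control libraries with L4 at 6 months were all from males. The value of mir-9-1 is no independent evidence here either, since its L pattern was known when the hairpins were chosen. Without the 6-month L4 libraries mir-9-1 differed by 0.067 and mir-9-3 by 0.018.

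Libraries with less miR-124 had more miR-9. Over the 48 libraries of 10 months, Pearson's r between the log2 sums was -0.59 (permutation p = 2e-05, adjusted over 10 relations 6.7e-05) and Spearman's rho was -0.57 (permutation p = 5e-05, adjusted p = 0.00017). Over the 48 libraries of 6 months, r was -0.73 (permutation p = 1e-05, the smallest that 100000 resamples can give, adjusted p = 6.7e-05) and rho was -0.65 (permutation p = 1e-05, adjusted p = 0.0001). Without the 2 libraries farthest from the median of miR-124, r was -0.48 at 10 months and -0.54 at 6 months. Without libraries with a connectivity Z under -5 it was -0.61 at 10 months (47 libraries) and -0.52 at 6 months (44 libraries).

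Within single L numbers the relation was uneven. At 10 months r was -0.81 in L3 (9 libraries, permutation p = 0.0097, adjusted p = 0.016), -0.43 in L4 (27 libraries, p = 0.023, adjusted p = 0.033) and -0.30 in L5 (12 libraries, p = 0.35, adjusted p = 0.44). At 6 months r was -0.78 in L5 (27 libraries, p = 3e-05, adjusted p = 7.5e-05), -0.16 in L4 (10 libraries, p = 0.66, adjusted p = 0.66) and -0.19 in L6 (9 libraries, permutation p = 0.61, adjusted p = 0.66). Without the 2 libraries farthest from the median of miR-124, r at 6 months was -0.56 in L5, 0.20 in L4 and -0.87 in L6. At 10 months it was then -0.55 in L3, -0.52 in L4 and -0.24 in L5. By Spearman's rho the relation passed in L5 at 6 months alone (rho -0.66, adjusted permutation p = 0.0005). At 10 months rho was -0.72 in L3 (adjusted p = 0.0615) and -0.36 in L4 (adjusted p = 0.0934). Both sums are divided by the same effective library size, and the part of that shared scale in the relation was not tested.

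**Figure D5:**
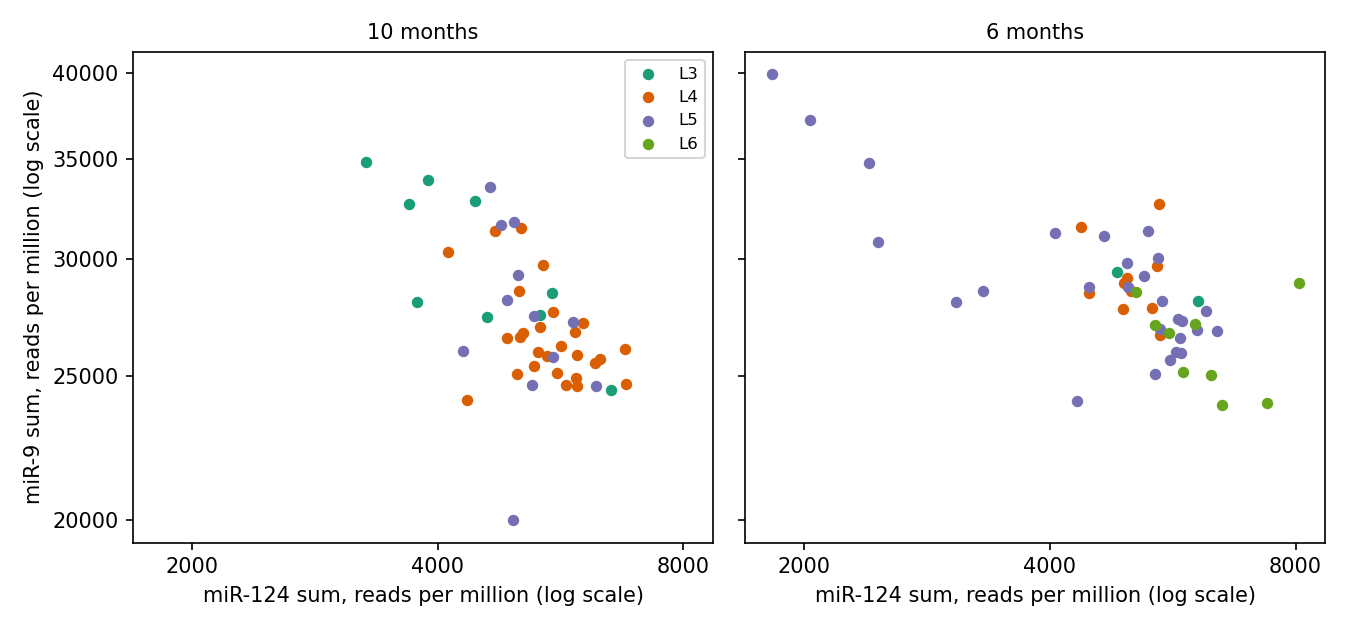
miR-9 sum against miR-124 sum in CPM (TMM-scaled, both axes log scale) in each library, at 10 months (left) and 6 months (right), coloured by L number. The 3 libraries with the least miR-124 at 6 months carry L5 and have the 3 highest miR-9 sums, and r is -0.59 at 10 months and -0.73 at 6 months.

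Among 309 other hairpins with a mean of at least 10 CPM, those most like each sum were found by Pearson's r of log2 CPM over 96 libraries, after subtracting the mean of each age. For the miR-124 sum they were MI0000576 (r = 0.84), MI0000797 (r = 0.83) and MI0000565 (r = 0.82), and the least like was MI0009991 (r = -0.85). For the miR-9 sum they were MI0005556 (r = 0.69), MI0000795 (r = 0.62) and MI0021908 (r = 0.62), and the least like was MI0014086 (r = -0.73). The libraries share scaling and L numbers, and these values are a description.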

How the data were processed

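By the study's methods, small RNA of the striatum was sequenced on a HiSeq2000, aligned to mm10 with STAR and counted with HTSeq. The submitters' processing notes name CASAVA 1.8.2. The deposited counts are estimated counts per hairpin, of which 20.0% of values above 0 are not whole. The study's methods do not state how reads were divided or how these values relate to the HTSeq counts. The deposited counts were rounded to whole numbers. The deposited FPKM values, made by the authors, entered 1 alternative, limma 3.58.1 on log2(FPKM + 1), and the check of lengths. Of 1187 hairpins, filterByExpr with a minimum count of 10 kept 474. Library totals of 3948560 to 12530911 limit the precision of mir-124-2 and mir-9-1 most.

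Tests were edgeR 4.0.16 quasi-likelihood F tests (R 4.3.3, TMM, robust) with sex as covariate, adjusted by Benjamini-Hochberg over all hairpins tested. CAG length entered as a number, 7 for wild type. For the family sums the 6 rows were replaced by 2 sums in the same table. TMM factors and dispersions were estimated anew for that table, so log2 differences of a sum and of its main copy can differ slightly. For results over both ages, signed Z values were combined by Stouffer's method to give p, and the log2 value is the mean of both ages. Intervals of 95% come from the SE. Fits were tested on simulated data. Shares were compared by exact permutation (Python 3.11, scipy). A further alternative was DESeq2 1.42.0, and the rest were other scaling, filters, controls, the L number, rounding down, the replicate number as a block and each library left out. Leaving out 6-month L4 libraries, or those with a connectivity Z under -5, was chosen after seeing the data. The study removed samples under that limit before its tests, whereas the 5 libraries under it here stayed in the main fits. The study's batch covariate is not in the labels used here.

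Same-numbered replicates did not deviate together (their residuals had a mean correlation of -0.0071 for 10 months and -0.049 for 6 months), and samples were treated as unpaired. No 2 libraries agreed within sampling noise (smallest chi-square per degree of freedom 17.5). Members and lists were chosen with earlier results of these data known. Named hairpins are the 6 members and, for each sum, the 3 hairpins with the highest r and the 1 with the lowest. The lists of other neuronal microRNAs and of cell type markers could not be matched, since the files give miRBase identifiers without names.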

Additional observations from a re-analysis of the deposited data

Results flagged for a closer look

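Each of 8 measures was examined in each group of 8 mice (1 genotype at 1 age), 96 sets of values in all. In 19 sets 1 value lay far from the other 7 (Dixon's criterion). The criterion's rate of about 1 in 20 holds for separate sets of normal values. CPM were not log-transformed here, so that rate is no measure of chance for these sets. The measures of a family share reads, so the 19 are not separate findings.

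Of the 19 values, 8 came from libraries with L4 at 6 months. mir-9-1 (MI0000720) was highest in Q140 male 2 (121 CPM, the next mouse 12.5), Q50 male 4 (100.4 CPM, next 42.4), Q20 male 3 (99.8 CPM, next 11.5) and male 1 of the wild-type littermates of Q20 (29.1 CPM, next 7.72). mir-9-3 (MI0000721) was highest in the same Q140 mouse (520 CPM, next 208), Q20 mouse (435 CPM, next 206) and wild-type mouse (549 CPM, next 229). mir-124-1 (MI0000716) was highest in the same Q20 mouse (127 CPM, next 94.6).

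Another 8 came from L5 libraries of 6 months, all of them from only 2 mice. Q140 male 1 had the lowest mir-124-3 (1781 CPM, next 4744) and miR-124 sum (1826 CPM, next 4836) and the highest mir-9-2 (39744 CPM, next 29163) and miR-9 sum (39958 CPM, next 29376) of its group. Male 3 of the wild-type littermates of Q50 had the lowest mir-124-3 (2006 CPM, next 4266) and miR-124 sum (2036 CPM, next 4365) and the highest mir-9-2 (37028 CPM, next 30854) and miR-9 sum (37206 CPM, next 31533).

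At 10 months mir-9-1 was highest in Q140 male 4 (14.7 CPM, next 5.78). Male 1 of the wild-type littermates of Q20 had the highest mir-124-3 (6150 CPM, next 5269) and miR-124 sum (6248 CPM, next 5338) of its group.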

How the results depend on the processing

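Outside of leaving out single libraries, 34 results were recomputed under 19 settings, and 321 of 417 values kept their direction and their side of the threshold. Among the 48 that changed sign only 1 was a called value, and the cause was not tested. Neither family sum was called in any comparison of CAG length, genotype, age or sex under these settings. Log2 values follow, with Q as the slope with CAG length over both ages. With total counts alone the miR-124 sum was -0.012 (Q), -0.033 (Q140, 6 months) and -0.0025 (Q140, 10 months), the miR-9 sum -0.0032 (Q140, 10 months), 0.0045 (Q92) and 0.0031 (Q50). With limma the miR-124 sum was -0.026 (Q), -0.064 and -0.0030 (Q140, 6 and 10 months), the miR-9 sum 0.0053 (Q92) and 0.0026 (Q50). With the L number as a factor the miR-124 sum was -0.058 (Q), -0.11 and -0.052 (Q140, 6 and 10 months) and 0.0019 (Q by age), the miR-9 sum 0.012 (Q), 0.0091 (Q140, 6 months) and 0.016 (Q50), and 0 members were called in Q140 at 6 months. With Q20 as the only controls the miR-124 sum was -0.099 (Q), -0.15 and -0.041 (Q140, 6 and 10 months) and -0.026 (Q50), the miR-9 sum 0.050 (Q), 0.013 (Q140, 6 months), 0.086 (Q92) and 0.084 (Q50), and 0 members were called in Q140 at 6 months. With wild-type controls alone the miR-9 sum was -0.038 (Q140, 10 months) and the miR-124 sum 0.017 (Q92). Without L6 the miR-124 sum was -0.038 (Q) and -0.11 (Q140, 6 months), the miR-9 sum 0.0027 (Q), 0.039 (Q140, 6 months) and 0.0092 (Q50), and 0 members were called in Q140 at 6 months. In Q140 at 6 months the fits with the L number, with Q20 controls and without L6 called 31, 21 and 13 of 474 hairpins, against 37 in the main fit. Without Q140 mice the miR-9 slope was 0.0018. A mean of at least 10 CPM gave 0.0046 for miR-9 in Q92 and removed mir-124-2. It left 0 members called in Q140 at 6 months, with 33 of 314 hairpins called. Without libraries of connectivity Z under -5 the miR-9 sum was 0.0014 (Q92) and 0.013 (Q50). Within L3 the slopes were -0.40 (miR-124) and 0.12 (miR-9), within L4 -0.016 and 0.0027, within L5 -0.065 (miR-124) and within L6 -0.0079 (miR-124). Q140 differences in miR-124 were -0.23 within L5 and -0.069 within L6 at 6 months and -0.060 within L4 at 10 months, and that in miR-9 was 0.029 within L5 at 6 months. L numbers with fewer than 2 Q140 or 2 control mice are not counted here.

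Between L numbers at 6 months the miR-124 sum passed the threshold with DESeq2 (0.53, adjusted p = 0.028), RLE factors (0.53, adjusted p = 0.049), a mean of at least 10 CPM (0.51, adjusted p = 0.038) and rounding down (0.52, adjusted p = 0.049), and the miR-9 sum with total counts (0.25, adjusted p = 0.016) and limma (0.25, adjusted p = 0.015). At 10 months the miR-124 sum passed with DESeq2 (0.26, adjusted p = 0.046). Members called between L numbers at 10 months were 2 with DESeq2 and 2 without a filter, against 1. DESeq2 called 131 of all 474 hairpins there, against 114 in the main fit. At 6 months 0 of 5 were called without the L4 libraries, although the spread of mir-124-3 stayed at 0.54. Against 3 members called between ages in controls, 1 was called with DESeq2 (mir-9-3), 1 with total counts (mir-9-1) and 1 with limma, which was mir-124-2 and none of the 3. None was called without a filter (0) or without the 6-month L4 libraries (0), where mir-9-1 was 0.0026. Of all 474 hairpins DESeq2 called 205 between ages and the fit without the 6-month L4 libraries 211, against 201 in the main fit. Total counts called 143 higher and 63 lower, and limma 152 higher and 66 lower.

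The replicate number as a block left 1 age call of 3, with mir-9-2 at -0.11 (adjusted p = 0.060) and mir-9-1 at -1.54 (adjusted p = 0.065), and mir-124-3 between L numbers at 6 months was not called (0.54, adjusted p = 0.10). The numbers did not pair the samples.

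With each library left out, 1980 of 2112 values kept direction and side. The Q slope ran from -0.0097 to 0.058 (miR-124) and -0.024 to 0.00054 (miR-9). Q140 differences at 6 months ran from -0.054 to 0.17 (miR-124) and -0.084 to 0.012 (miR-9), and at 10 months from -0.013 to 0.087 (miR-124) and 0.0033 to 0.041 (miR-9). Q92 differences ran from -0.12 to 0.0025 (miR-124) and -0.020 to 0.021 (miR-9), and Q50 differences of miR-9 from -0.032 to 0.0063. The Q by age term of miR-124 ran from -0.12 to 0.0055. The age difference of miR-9 in controls ran from -0.12 to -0.071, passing the threshold for 1 of 48 left out, female 4 among Q20 wild-type littermates of 10 months. Between L numbers, miR-124 ran from 0.44 to 0.56 at 6 months and from 0.20 to 0.35 at 10 months. mir-124-2 in Q140 at 6 months ran from 0.64 to 0.78, and 1 of 48 lost the call. Counts called ran from 0 to 1 (Q140, 6 months), 1 to 3 (age), 2 to 3 (L number, 6 months) and 1 to 3 (L number, 10 months).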
